A study of Homo sapiens with 10 samples.

Results

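The amino acid transporter genes of the SLC1A, SLC3A, SLC6A, SLC7A, SLC36A, SLC38A and SLC43A families were followed in BEAS-2B cells, an immortalized human bronchial epithelial line, after chromate transformation. A gene belonged to the set when its symbol started with 1 of these 7 family names followed by digits and at least 1 array row carried that symbol alone. This gave 59 of the 18377 genes with such a row. Where a gene had several rows, the row with the highest mean was used. RNA of 10 cell lines was hybridised to Affymetrix Human Gene 1.0 ST arrays, 1 array each. There were 3 Cr_small lines, grown from small soft agar colonies of cells exposed to 0.5 µM potassium chromate, 3 Cr_large lines, from large colonies of the same exposed cells, 3 control lines, from soft agar colonies that arose in untreated cells, and 1 array of parental BEAS-2B cells. The exposure lasted 30 days and growth in soft agar 3 weeks, and each line was expanded from 1 colony in monolayer before RNA extraction. The deposited treatment text gives the chromate exposure for every array, so the groups rest on the array titles and the methods of the study. No repeat of the exposure was described, so the tests below measure the spread between lines that each descend from 1 colony.

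Cells take up amino acids through carriers that differ in substrate and in driving force. Sodium-coupled carriers, such as those of system A, concentrate small neutral amino acids, and exchangers use these stores to bring in others. The light chains of the SLC7 family reach the cell surface bound to a heavy chain of the SLC3 family. Some carriers, such as SLC36A1 and SLC38A9, work largely on the lysosome, where amino acids control the growth kinase complex mTORC1. Amino acid starvation raises many of these genes through the transcription factor ATF4, and oxidative stress raises the cystine carrier SLC7A11 through NRF2.

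Levels are log2 intensities after robust multi-array averaging, and they were not compared between genes because each row has its own probes. Over all rows the level ran from 4.32 to 14.05 with a median of 5.86. Of the 59 transporter genes, 33 had a mean under the median of the row means, 5.87, and 22 had a mean over 7. Array medians lay between 5.82 and 5.90. Among cell type markers, KRT8, KRT18 and KRT7 had means of 11.26 or more in the Cr lines and in the control lines. The epithelial adhesion genes CDH1 and EPCAM had means between 4.93 and 5.19 in those groups, under the median of the rows. Mesenchymal VIM had means of 11.85 in the Cr lines and 11.69 in the control lines. Of 10 epithelial markers, 3 were higher in the Cr lines, the keratins KRT8, KRT18 and KRT7, and no other had an unadjusted p under 0.05. The median difference over the 10 was 0.16, and 5 of them had means under the median of the rows. The summed level of all 10 was 73.8 to 78.4 in Cr_small and 76.4 to 80.1 in Cr_large. It was 72.5 to 73.5 in control and 75.1 in parental cells, so Cr_small line 1 at 73.8 lay near the control lines. Of 10 mesenchymal, 9 airway, 8 leukocyte and 8 endothelial markers measured, 0 passed in limma, with 1, 0, 2 and 1 at an unadjusted p under 0.05. The macrophage gene CD68 was the only airway, leukocyte or endothelial marker with a mean over 7. Of 8 neural markers, all with means of 7 or less, 1 was lower (MAP2) and 5 had an unadjusted p under 0.05. The part of these keratin differences in the transporter values was not tested.

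Promoter windows of the 4 genes that differed between the Cr lines and the control lines are shown because the genes of amino acid starvation and oxidative stress are known to carry ATF4 or NRF2 motifs near their starts. The sequences are RefSeq's, on GRCh38.p14, and run 5′ to 3′ over the 250 bases before the start. SLC36A4 lies at chr11:93197992-93198241 on the minus strand, SLC1A5 at chr19:46788595-46788844 on the minus strand, SLC38A2 at chr12:46372774-46373023 on the minus strand and SLC7A6 at chr16:68264276-68264525 on the plus strand. Capitals mark matches of any of the 3 motifs searched on both strands. These were TGATGNAA of the ATF4 response, TGANNNNGC, a loose form of the antioxidant response core, and the E-box CACGTG.
SLC36A4: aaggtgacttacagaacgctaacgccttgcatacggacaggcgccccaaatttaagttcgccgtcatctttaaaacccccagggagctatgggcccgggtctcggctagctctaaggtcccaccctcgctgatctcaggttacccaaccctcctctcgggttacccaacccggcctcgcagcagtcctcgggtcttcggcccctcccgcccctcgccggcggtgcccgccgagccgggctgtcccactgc
SLC1A5: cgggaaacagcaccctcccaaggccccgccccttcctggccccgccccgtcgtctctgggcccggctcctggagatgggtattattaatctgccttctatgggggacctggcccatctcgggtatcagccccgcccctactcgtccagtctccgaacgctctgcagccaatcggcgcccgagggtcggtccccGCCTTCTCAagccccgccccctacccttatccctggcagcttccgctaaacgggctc
SLC38A2: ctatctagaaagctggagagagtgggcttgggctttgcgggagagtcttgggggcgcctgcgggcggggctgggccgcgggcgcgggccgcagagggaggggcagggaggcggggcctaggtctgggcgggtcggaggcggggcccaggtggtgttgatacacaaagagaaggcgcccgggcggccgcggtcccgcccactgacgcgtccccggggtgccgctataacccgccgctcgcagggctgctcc
SLC7A6: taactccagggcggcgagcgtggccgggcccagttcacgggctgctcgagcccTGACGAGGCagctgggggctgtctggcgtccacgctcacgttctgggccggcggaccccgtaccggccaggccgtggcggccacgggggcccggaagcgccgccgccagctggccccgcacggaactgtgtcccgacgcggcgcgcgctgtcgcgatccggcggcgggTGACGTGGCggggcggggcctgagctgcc
The loose 9-letter pattern TGANNNNGC matched in SLC7A6 at 2 places and in SLC1A5 at 1 place, there on the opposite strand. In these windows no motif matched in SLC36A4 or SLC38A2, and bases outside the windows, introns included, were not searched for motifs. Over windows that also held the 50 bases after the start, 46 of the 59 genes had a promoter in the table. TGATGNAA was in 4 of the 46 (8.70%; SLC1A3, SLC7A1, SLC3A2 and SLC38A1) and in 3.67% of all 27305 promoters. TGANNNNGC was in 21 (45.7%) and in 42.1% of all, and CACGTG in 6 (13.0%) and in 7.43% of all. Matches are descriptions of letters and not sites in use.

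The first comparison asked which carriers differed between lines transformed by chromate and lines that grew in soft agar without it. SLC36A4, a carrier of proline and tryptophan, and SLC1A5, the exchanger ASCT2 that brings in glutamine, were higher in the 6 Cr lines. SLC38A2, the starvation-inducible system A carrier SNAT2, and SLC7A6, the light chain y+LAT2 that exchanges cationic for neutral amino acids, were lower. These 4 of 59 genes (6.78%) passed an adjusted p of 0.05 in limma, fitted over all 28869 rows and adjusted by Benjamini-Hochberg. Over all rows 11.0% passed, 5.33% higher and 5.72% lower. Among the 26 transporter genes with a mean over the median of the rows, 4 passed (15.4%), against 19.6% of such rows. Both shares were below those of the rows and rest on 4 genes, and the difference in shares was not tested. SLC36A4 was the only transporter gene that also differed by 1.5-fold or more (1.69% of 59, against 4.23% of all rows). The median log2 difference was 0.03 over the 59 genes and 0.01 over all rows. Without control line 3, 1 of the 4 calls passed (SLC36A4), without control line 1, 2 (SLC36A4 and SLC1A5), and without Cr_small line 1, 2 (SLC36A4 and SLC38A2).

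**Figure D1:**
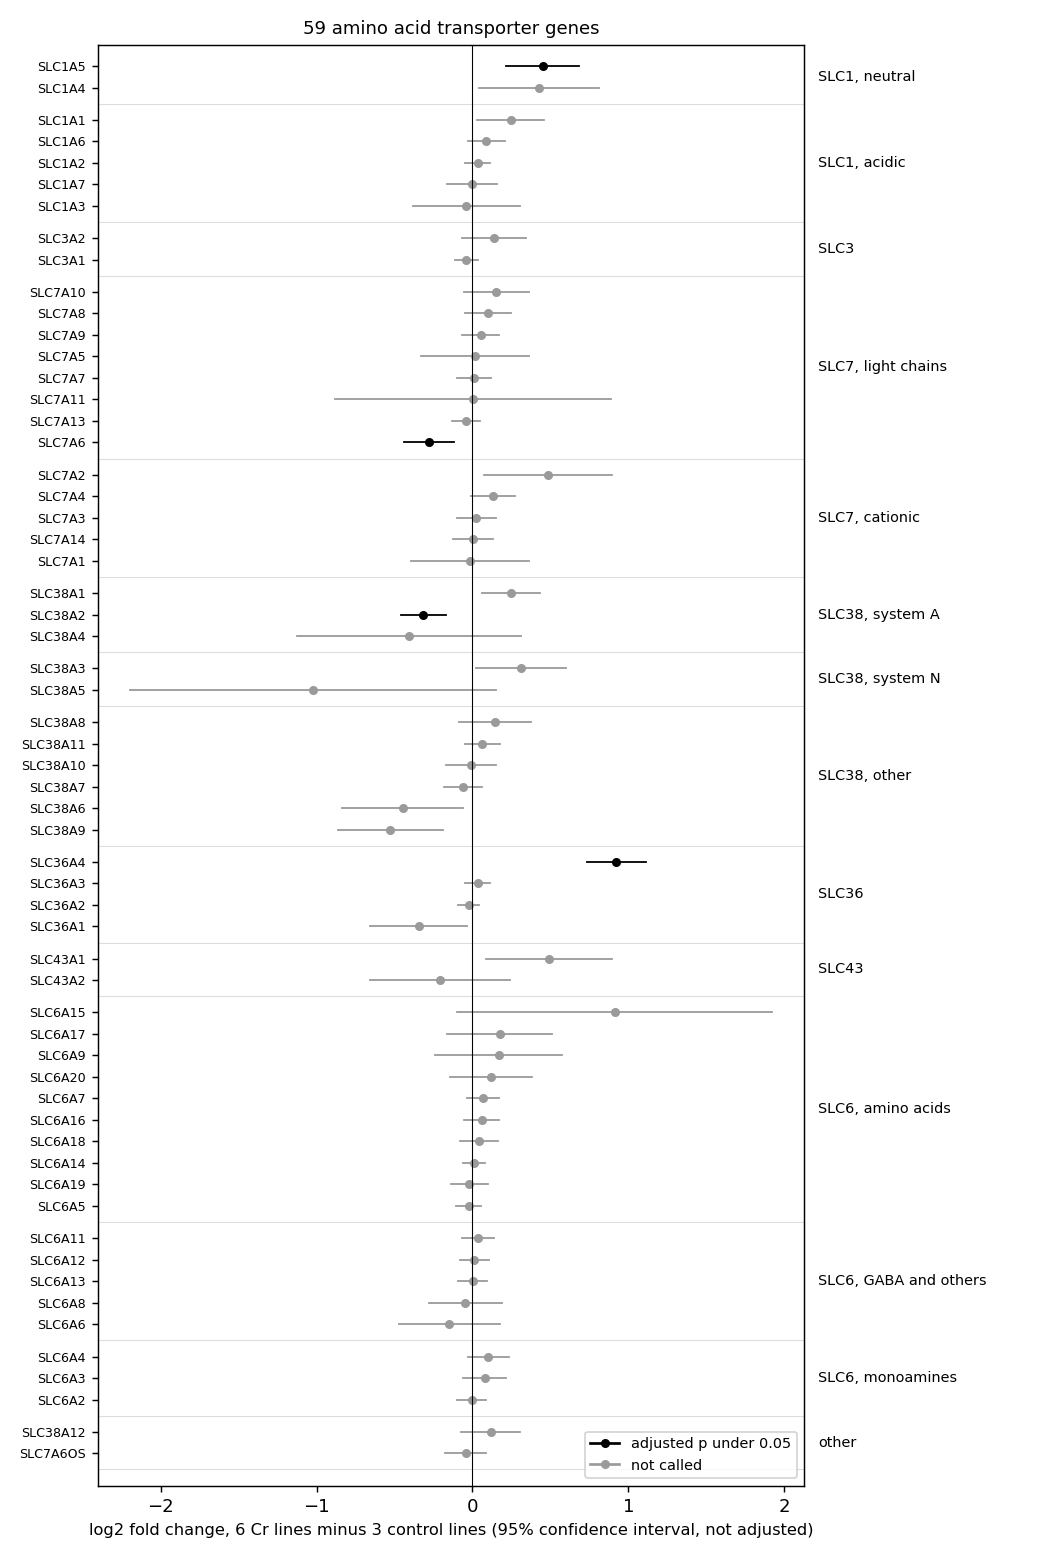
Log2 difference of each of the 59 transporter genes between the 6 Cr lines and the 3 control lines, in order of role, with the 95% interval of the limma fit. Black points mark the 4 genes that passed an adjusted p of 0.05, SLC36A4 and SLC1A5 to the right of 0 and SLC38A2 and SLC7A6 to the left.

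SLC36A4 had log2 levels of 9.44, 9.27 and 9.37 in Cr_small lines and 9.44, 9.34 and 9.70 in Cr_large lines, against 8.52, 8.41 and 8.58 in control lines and 8.58 in parental cells. All 6 Cr lines lay above all 3 control lines and the parental array. The mean was 9.43 ± 0.15 in Cr lines (SD, n = 6) and 8.50 ± 0.09 in control lines (SD, n = 3), a log2 difference of 0.92 (SE 0.08, 95% interval 0.73 to 1.12) or 1.90-fold, with a limma adjusted p of 0.000644. It passed in each of the 19 alternatives that give an adjusted p, left-out lines included, with values from 0.000251 to 0.00551. Of the other SLC36 genes, SLC36A1, a proton-coupled carrier of the lysosome, had a log2 difference of -0.35 (adjusted p = 0.161), and SLC36A2 and SLC36A3 were under the median of the rows. Around SLC36A4 on chromosome 11, 9 of the 10 nearest protein-coding genes were measured, 5 places to each side. Of these 3 were higher in the Cr lines and 0 lower, with a median of 0.31. The 3 were CHORDC1, a heat shock protein partner, by 1.48 (adjusted p = 0.00111), SMCO4 by 0.73 and CEP295, a centriole protein, by 0.59. The closest measured genes on each side, MTNR1B (-0.05) and DEUP1 (-0.02), did not pass and were under the median of the rows. For neighbour counts here and below, 5.33% of all rows were higher and 5.72% lower. Places count genes and not bases, and a shift of the region was not tested.

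SLC1A5 had levels of 10.14, 10.02 and 10.06 in Cr_small lines and 10.02, 10.03 and 9.69 in Cr_large lines, against 9.71, 9.34 and 9.58 in control lines and 9.0 in parental cells. In this row Cr_large line 3 overlapped the control lines, and the other 5 Cr lines lay above them. The mean was 9.99 ± 0.16 in Cr lines (SD, n = 6) and 9.54 ± 0.19 in control lines (SD, n = 3), a difference of 0.45 (SE 0.10, 95% interval 0.21 to 0.69) or 1.37-fold (adjusted p = 0.0278). A second row of the gene had a difference of 0.27 (adjusted p = 0.0267). There all 6 Cr lines lay above the control lines (6.17 or more against 6.07 or less). The call held in 3 of the 9 fits with a line left out and was lost without control line 2 (adjusted p = 0.0835) or 3 (adjusted p = 0.0850), Cr_small line 1 or 3, or Cr_large line 1 or 2. Of 7 genes measured within 5 places of SLC1A5 on chromosome 19, 1 was higher and 0 lower, with a median of -0.07. SLC1A4, the related exchanger ASCT1 for alanine, serine and cysteine, had levels of 8.35, 7.89 and 7.70 in Cr_small lines and 7.77, 8.09 and 8.39 in Cr_large lines, against 7.63, 7.5 and 7.68 in control lines and 8.56 in parental cells. All 6 Cr lines lay above the control lines, at 8.03 ± 0.29 in Cr lines and 7.60 ± 0.09 in control lines (SD, n = 6 and 3), but the difference of 0.43 did not pass (adjusted p = 0.159). The 5 acidic amino acid carriers of the family, which take up glutamate and aspartate, had means of 4.69 to 5.54, all under the median of the rows, and 0 of them passed in limma (1 at an unadjusted p under 0.05).

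**Figure D2:**
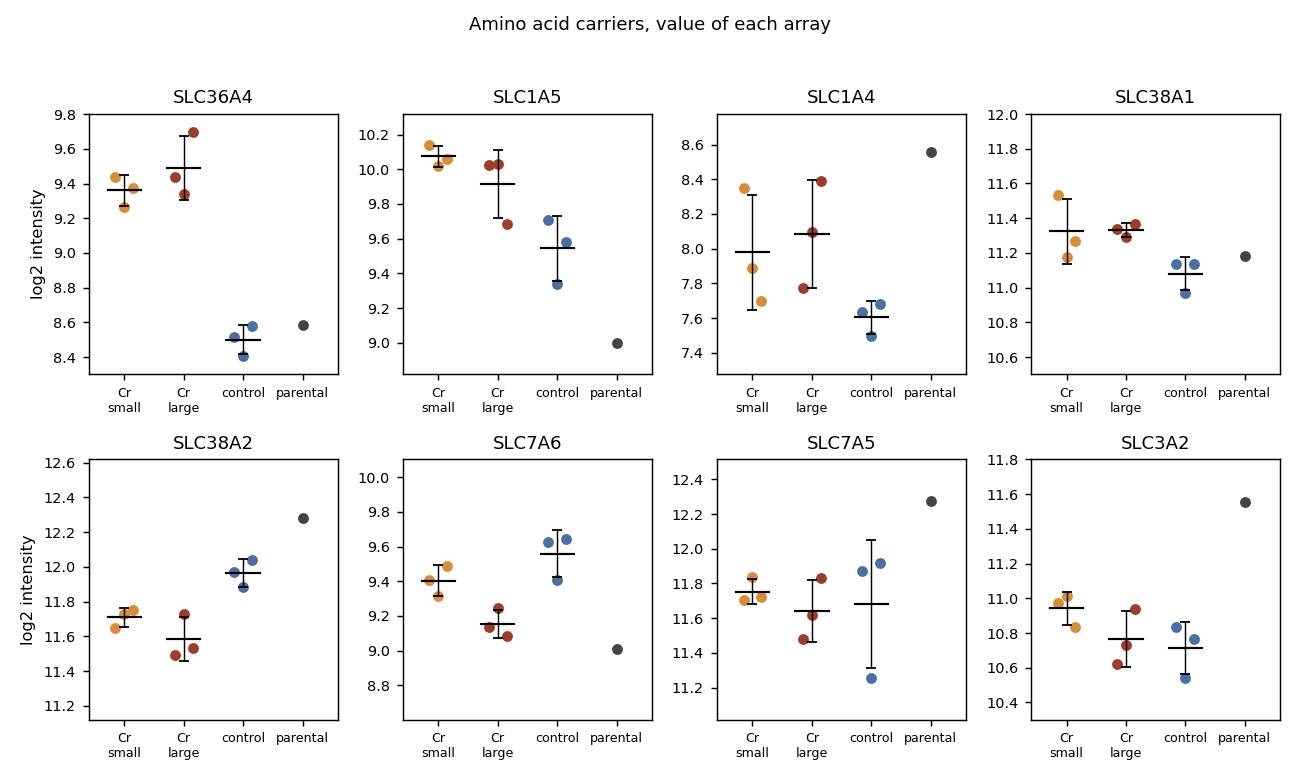
Log2 intensity of each array for SLC36A4, SLC1A5, SLC1A4, SLC38A1, SLC38A2, SLC7A6, SLC7A5 and SLC3A2, with Cr_small, Cr_large, control and parental cells from left to right; bars give the mean and SD of 3 lines. All 6 Cr lines lie above the control lines for SLC36A4 and below them for SLC38A2, and Cr and control lines overlap for SLC7A5 and SLC3A2.

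Of the 3 system A carriers, which take up small neutral amino acids with sodium, 1 was lower and 0 higher. SLC38A2 had levels of 11.65, 11.73 and 11.75 in Cr_small lines and 11.49, 11.73 and 11.53 in Cr_large lines, against 11.97, 11.88 and 12.04 in control lines and 12.28 in parental cells. Every Cr line lay below every control line, and parental cells lay above all 9 lines. The difference was -0.32 (SE 0.06, 95% interval -0.46 to -0.17) or 1.25-fold lower in Cr lines (adjusted p = 0.0165), and the call held in 16 of 19 alternatives. SLC38A1, the broadly expressed carrier SNAT1, had levels of 11.54, 11.17 and 11.27 in Cr_small lines and 11.34, 11.29 and 11.37 in Cr_large lines, against 11.13, 10.97 and 11.13 in control lines and 11.18 in parental cells. The Cr lines lay above the control lines without overlap, by 0.25 (95% interval 0.06 to 0.43), and the difference did not pass (adjusted p = 0.0965). SLC38A1, SLC38A2 and SLC38A4 are neighbours on chromosome 12. Of the 10 genes around SLC38A2 all 10 were measured, and 1 passed, AMIGO2, a cell adhesion protein, with a difference of -2.27 (adjusted p = 0.0117).

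The heavy chain SLC3A2 and its light chain SLC7A5, the LAT1 carrier of leucine and other large neutral amino acids, did not pass in limma. SLC7A5 had levels of 11.70, 11.83 and 11.72 in Cr_small lines and 11.48, 11.62 and 11.83 in Cr_large lines, against 11.87, 11.26 and 11.92 in control lines and 12.27 in parental cells. Control line 2 was the lowest of the 9 lines and the other 2 control lines the highest, so the groups overlapped, and the difference was 0.02 (95% interval -0.33 to 0.36, adjusted p = 0.969). SLC3A2 had levels of 10.98, 11.02 and 10.83 in Cr_small lines and 10.62, 10.73 and 10.94 in Cr_large lines, against 10.84, 10.54 and 10.76 in control lines and 11.56 in parental cells. The parental array was again above all 9 lines, and the Cr lines differed from control lines by 0.14 (95% interval -0.07 to 0.35, adjusted p = 0.413). SLC7A6 had levels of 9.41, 9.31 and 9.49 in Cr_small lines and 9.14, 9.24 and 9.08 in Cr_large lines, against 9.63, 9.40 and 9.65 in control lines and 9.01 in parental cells. The Cr_large lines lay below all control lines and the Cr_small lines overlapped them. The difference between all Cr lines and control lines was -0.28 (SE 0.07, 95% interval -0.44 to -0.12) or 1.21-fold lower (adjusted p = 0.0396), and the call held in 9 of 19 alternatives, with adjusted p up to 0.173. Of the 9 fits with a line left out it held in 3, those without control line 2, Cr_small line 3 or Cr_large line 2. SLC7A6OS, which overlaps SLC7A6 on the opposite strand and encodes no carrier, had a difference of -0.04 (adjusted p = 0.740). Of the 10 genes around SLC7A6, all measured, 2 were lower and 0 higher, with differences of -0.28 for the tRNA-modifying enzyme DUS2 (adjusted p = 0.00391) and -0.25 for the transcription factor NFATC3 (adjusted p = 0.0101).

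SLC7A11, the cystine and glutamate exchanger xCT that feeds glutathione synthesis, varied widely within groups. Its levels were 9.44, 8.06 and 8.04 in Cr_small lines and 8.55, 8.62 and 9.74 in Cr_large lines, against 9.03, 8.54 and 8.64 in control lines and 8.81 in parental cells. Cr_small line 1 and Cr_large line 3 were the highest and the other 2 Cr_small lines the lowest. The mean was 8.74 ± 0.71 in Cr lines (SD, n = 6) and 8.74 ± 0.26 in control lines (SD, n = 3), with a difference of 0.01 and a wide 95% interval of -0.88 to 0.89 (adjusted p = 0.994). The arginine and lysine carrier SLC7A1 averaged 10.37 ± 0.23 in Cr lines and 10.39 ± 0.27 in control lines (SD, n = 6 and 3), and 0 of the 5 genes of its branch passed in limma (1 at an unadjusted p under 0.05). Of the 8 light chains only SLC7A6 passed. Without control line 2 or 3, Cr_small line 1 or Cr_large line 3, or with each array centred on its median, the sign of the SLC7A11 difference turned.

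Of the 6 other SLC38 genes 0 passed in limma (2 at an unadjusted p under 0.05), and of the 2 system N carriers 0 passed (1 unadjusted). SLC38A9, the arginine sensor of the lysosome, had levels of 8.0, 8.41 and 8.14 in Cr_small lines and 7.81, 7.95 and 8.30 in Cr_large lines, against 8.49, 8.89 and 8.50 in control lines and 8.64 in parental cells. All 6 Cr lines lay below the control lines, by -0.53 on the log2 scale (95% interval -0.86 to -0.19), and the adjusted p was 0.0570. It passed in 7 alternatives, among them those without Cr_small line 2 (adjusted p = 0.0477) and without Cr_large line 3 (adjusted p = 0.0297). Of 9 genes measured within 5 places of SLC38A9 on chromosome 5, 2 were lower (PLPP1 and IL6ST, both at -0.58) and 0 higher. The 2 SLC43 genes, SLC43A1 and SLC43A2, both facilitators of large neutral amino acids, had differences of 0.49 (adjusted p = 0.125) and -0.21 (adjusted p = 0.594), and without Cr_large line 1 that of SLC43A1 passed (0.59, adjusted p = 0.0447). Among the SLC6 genes, named for carriers of transmitters, glycine, taurine and creatine, 0 of the 10 amino acid and orphan carriers, 0 of the 5 carriers of GABA, taurine, betaine and creatine and 0 of the 3 monoamine carriers passed in limma, with 0 of these at an unadjusted p under 0.05, and 14 of these 18 genes were under the median of the rows. The taurine carrier SLC6A6 averaged 9.33 ± 0.10 in Cr lines and 9.48 ± 0.38 in control lines (SD, n = 6 and 3; adjusted p = 0.598), and without control line 2, the lowest of the 9 lines, the difference was -0.36 and passed (adjusted p = 0.0140). By groups that did not overlap, 5 transporter genes had all 6 Cr lines above all control lines (SLC36A4, SLC6A15, SLC7A2, SLC1A4 and SLC38A1) and 2 had them below (SLC38A9 and SLC38A2), where 8.85% and 7.84% of all rows did.

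The second question was whether lines from small and from large colonies differed from control lines alike. Both comparisons use the same 3 control lines, so their values are given side by side. In Cr_small lines 2 of 59 genes passed (SLC36A4 and SLC1A5, both higher), where 8.26% of all rows did, 3.79% higher and 4.47% lower. In Cr_large lines 3 passed (SLC36A4 higher, SLC38A2 and SLC7A6 lower), where 7.44% of all rows did, 3.33% higher and 4.11% lower. At 1.5-fold or more only SLC36A4 passed in either, where 4.03% of all rows passed in Cr_small and 3.73% in Cr_large lines. SLC36A4 was 1.81-fold higher in Cr_small lines (adjusted p = 0.00241) and 1.99-fold higher in Cr_large lines (adjusted p = 0.00136). SLC1A5 had a difference of 0.53 in Cr_small lines (adjusted p = 0.0327) and 0.37 in Cr_large lines (adjusted p = 0.113). SLC38A2 had a difference of -0.25 in Cr_small lines (adjusted p = 0.0757) and -0.38 in Cr_large lines (adjusted p = 0.0192). SLC7A6 had a difference of -0.16 in Cr_small lines (adjusted p = 0.321) and -0.40 in Cr_large lines (adjusted p = 0.0229). Set directly against each other, Cr_large and Cr_small lines differed in 0 transporter genes and in 0 rows by limma (0.0% of all), while 4 transporter genes (SLC36A2, SLC1A7, SLC7A2 and SLC7A6) and 1266 rows had an unadjusted p under 0.05, and 3 transporter genes had one by the methods' t-test. The calls of 1 group therefore do not show a difference between the groups. In the Cr_large comparison 1 call remained, SLC36A4, without control line 1, control line 3 or Cr_large line 1. Without Cr_large line 3, SLC1A5 passed in Cr_large lines (0.48, adjusted p = 0.0401), and SLC38A2 and SLC7A6 did not. In the Cr_small comparison SLC36A4 alone passed without control line 3 or without any 1 of the Cr_small lines, and SLC36A4 and SLC6A6 passed without control line 2.

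Lines of 1 group also differed among themselves. In at least 1 of the 3 groups, the 3 lines spanned more than 1 log2 unit for 4 of 59 transporter genes (6.78%), where 2.27% of all rows did, and among rows over the median these shares were 11.5% of 26 transporter genes and 4.0% of rows. The widest span within a group was 2.54 for SLC38A5 (control lines), 1.70 for SLC6A15 (Cr_large), 1.41 for SLC7A11 (Cr_small) and 1.27 for SLC38A4 (Cr_large). Over all 9 lines SLC36A4 spanned 1.29, most of it between Cr and control lines. SLC38A5 encodes the system N carrier SNAT5 of glutamine. Its levels were 6.45, 5.75 and 5.59 in Cr_small lines and 6.51, 5.99 and 6.0 in Cr_large lines, against 6.64, 8.56 and 6.01 in control lines and 7.72 in parental cells. Control line 2 stood far above the other 8 lines, and the difference of -1.02 between Cr and control lines did not pass (95% interval -2.20 to 0.15, adjusted p = 0.273). With a line left out it ran from -1.55 to -0.28, and it was -0.28 without control line 2 (adjusted p = 0.648).

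SLC6A15, a carrier of branched-chain amino acids and proline known mainly from brain, was near the dim end of the array in most lines. Its levels were 4.90, 4.84 and 6.28 in Cr_small lines and 6.49, 6.72 and 5.02 in Cr_large lines, against 4.77, 4.81 and 4.81 in control lines and 4.79 in parental cells. Cr_small line 3 and Cr_large lines 1 and 2 stood more than 1 log2 unit above the rest. In Cr_large lines it was 2.43-fold higher without passing (adjusted p = 0.197), and without Cr_large line 3 the difference was 1.81 (adjusted p = 0.0456). That line was the lowest of the 3 Cr_large lines, and of the 9 fits with a line left out only this 1 passed. SLC7A2, an arginine carrier of the CAT branch, had levels of 5.46, 5.47 and 5.37 in Cr_small lines and 6.37, 5.48 and 6.28 in Cr_large lines, against 5.28, 5.24 and 5.26 in control lines and 5.29 in parental cells. Cr_large lines 1 and 3 stood apart, and the 1.73-fold difference of Cr_large lines from control lines had an adjusted p of 0.0592, which was 0.000292 without Cr_large line 2 (difference 1.07). Without that line SLC7A2 also differed between Cr_large and Cr_small lines (0.90, adjusted p = 0.0190). Line 2 was the Cr_large line nearest to the Cr_small lines, so leaving it out widens the difference by choice of line. With no other line left out did this comparison pass.

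**Figure D3:**
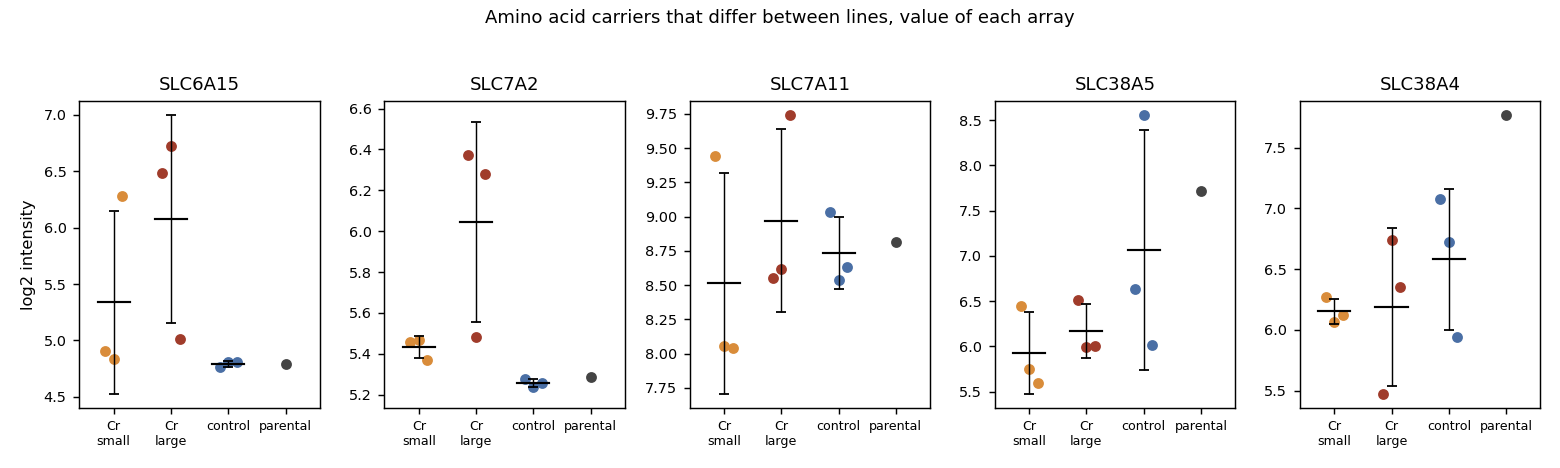
Log2 intensity of each array for SLC6A15, SLC7A2, SLC7A11, SLC38A5 and SLC38A4, with Cr_small, Cr_large, control and parental cells from left to right; bars give the mean and SD of 3 lines. One line is high for SLC38A5 (control line 2 at 8.56), 2 for SLC7A2 (Cr_large lines 1 and 3 at 6.37 and 6.28) and 3 for SLC6A15 (6.28 to 6.72).

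The third question was how the colony lines stood to the cells they came from. With 1 parental array there is no test, and all 3 comparisons share that array. A mean at least 2-fold from the parental value was found for 3 of 59 genes in Cr_small (5.08%, against 1.98% of all rows), 3 in Cr_large (5.08%, against 1.83%) and 1 in control lines (1.69%, against 1.13%). SLC38A4, the system A carrier SNAT4, was 3.06-fold lower in Cr_small, 2.99-fold lower in Cr_large and 2.28-fold lower in control lines than in parental cells. Its levels were 6.27, 6.07 and 6.12 in Cr_small lines and 5.47, 6.74 and 6.36 in Cr_large lines, against 7.07, 6.72 and 5.94 in control lines and 7.77 in parental cells. Every line lay below parental cells, and Cr and control lines overlapped (difference -0.41, adjusted p = 0.498). SLC38A5 was 3.45-fold lower in Cr_small, 2.93-fold lower in Cr_large and 1.57-fold lower in control lines, although control line 2 exceeded the parental value, and without that line the control mean was 2.62-fold lower. Without control line 3 the control mean was 1.83-fold lower for SLC38A4 and 1.09-fold lower for SLC38A5. SLC1A5 was 2.10-fold higher than parental cells in Cr_small, 1.88-fold higher in Cr_large and 1.46-fold higher in control lines. SLC6A15 was 2.43-fold higher in Cr_large lines. For SLC36A4, control lines and parental cells were close, at 8.50 ± 0.09 (SD, n = 3) and 8.58.

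**Figure D4:**
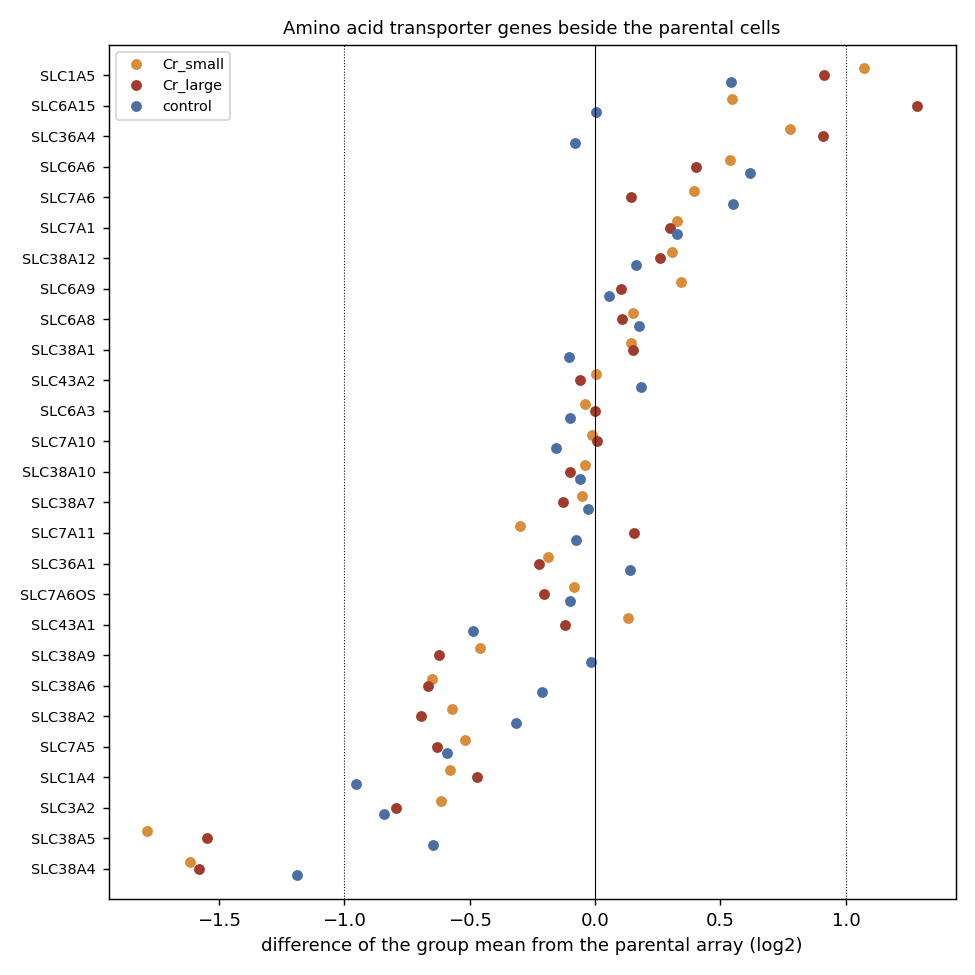
Log2 difference of each group's mean from the single parental array for 27 transporter genes, the 26 with a mean over the median of the rows and SLC6A15, in order of their mean difference; colours mark Cr_small, Cr_large and control, and dotted lines 2-fold. SLC38A4 and SLC38A5 lie to the left of 0 in all 3 groups and SLC1A5 to the right.

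The parental array lay above all 9 lines for 9 of the 59 transporter genes and below them for 8, where 11.9% and 14.0% of all rows did. These counts are near the shares of all rows. Those above were SLC6A11, SLC7A4, SLC3A1, SLC3A2, SLC7A5, SLC1A4, SLC38A2, SLC38A4 and SLC38A3. Among them SLC6A11, SLC7A4, SLC3A1 and SLC38A3 had means under the median of the rows. For SLC3A1 the parental value of 5.07 was close to the highest control line and the highest Cr line, both at 5.01. For SLC7A5 the log2 difference from parental cells was -0.52 in Cr_small, -0.63 in Cr_large and -0.59 in control lines, and for SLC3A2 it was -0.62 in Cr_small, -0.79 in Cr_large and -0.84 in control lines. Those below were SLC36A3, SLC6A6, SLC6A17, SLC6A2, SLC7A1, SLC7A6, SLC1A5 and SLC38A8. Among these SLC36A3, SLC6A17, SLC6A2 and SLC38A8 had means under the median of the rows. The other 42 genes had the parental value within the range of the lines. A batch of the parental array and the difference between parental cells and colony lines cannot be told apart.

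Gene lists around the carriers were compared between the 6 Cr lines and the 3 control lines, with 11.0% of all rows called, and 19.6% of rows over the median level. Most list genes were over that median. Counting those alone, the share called was 35.7% of 14 other carriers, 13.0% of 23 amino acid response genes, 21.1% of 19 synthetases, 25% of 24 enzymes, 21.4% of 28 mTORC1 genes and 28.6% of 14 partners and regulators. Of 24 other amino acid carriers 4 were higher and 2 lower (25%), with a median difference of 0.03. The largest rises were the lysosomal exporter SLC66A1 (0.64, adjusted p = 0.00814), the mitochondrial glutamate carrier SLC25A22 (0.56, adjusted p = 0.00366) and the aspartate and glutamate carrier SLC25A13 (0.31, adjusted p = 0.0431). Its relative SLC25A12 (-0.57, adjusted p = 0.0141) and the mitochondrial serine carrier SFXN3 (-0.84, adjusted p = 0.0105) were lower. The 2 aspartate and glutamate carriers of mitochondria thus lay on opposite sides. Of 26 genes of the amino acid response 3 were higher and 0 lower (11.5%, median 0.11), namely the serine synthesis enzymes PSAT1 (0.81, adjusted p = 0.0222) and PSPH (0.59, adjusted p = 0.00894) and the serine-to-glycine enzyme SHMT2 (0.26, adjusted p = 0.0402). The asparagine synthetase ASNS, an ATF4 target, had a difference of 0.15 (adjusted p = 0.585). Of 19 cytosolic tRNA synthetases measured, which load amino acids onto tRNA, 3 were higher and 1 lower (21.1%, median 0.19), with CARS1 at 0.78, TARS1 at 0.65, YARS1 at 0.65 and KARS1 at -0.36.

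Of 27 enzymes of amino acid metabolism measured 6 were higher and 0 lower (22.2%, median 0.15). They were led by the aspartate transaminase GOT1 (0.93, adjusted p = 0.00646), the branched-chain transaminase BCAT1 (0.83, adjusted p = 0.00325) and PSAT1, which stands in both lists. The lists share further genes, so their counts are not independent. Of 31 genes by which mTORC1 senses amino acids 1 was higher and 5 lower (19.4%, median -0.08). KICS2, a subunit of the KICSTOR scaffold, was higher (0.45, adjusted p = 0.0305), and the Ragulator subunits LAMTOR3 (-0.82, adjusted p = 0.0157) and LAMTOR2 (-0.43, adjusted p = 0.0291) and the folliculin partner FNIP2 (-0.63, adjusted p = 0.00717) were lower. Of 17 partners and regulators of carriers 1 was higher and 3 lower (23.5%, median 0.04). NEDD4, a ubiquitin ligase that removes membrane carriers from the surface, had levels of 7.66, 7.69 and 7.65 in Cr_small lines and 7.75, 7.53 and 7.84 in Cr_large lines, against 9.83, 9.77 and 9.84 in control lines and 8.76 in parental cells. All Cr lines lay below and all control lines above the parental value. The mean of 7.69 ± 0.10 in Cr lines (SD, n = 6) was 4.36-fold lower than the 9.81 ± 0.04 of control lines (SD, n = 3; adjusted p = 3.01e-06). The kinase SGK1, which raises the surface level of several carriers, was lower too (-1.06, adjusted p = 0.00667), as was ARL6IP5 (-0.95, adjusted p = 0.0169), while GCLC, the glutathione synthesis enzyme that uses cysteine, was higher (0.44, adjusted p = 0.00264).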

How the data were processed

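The authors' deposited values are intensities on a linear scale, made per their methods with the RMA16 summary of GeneSpring v11 from Affymetrix Human Gene 1.0 ST arrays, 1 value per row and array; the baseline transformation their methods also name is not in these values. The genome build of the array annotation is not given in the sources used here. Of 28869 rows, 19310 carried 1 gene symbol, 1752 several and 7807 none in the platform annotation. Intensities were taken to log2 and fitted with limma 3.58.1 in R 4.3.3 over 4 groups of 10 arrays, with Benjamini-Hochberg adjustment over all rows and an adjusted p of 0.05 as threshold. Parental values come from 1 array and were compared by fold only, with 2-fold as limit. The precision is limited by 3 lines per group and by the dim rows, where summary values are compressed. The scripts were tested on simulated data.

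Genes named with each array's value were those called at 1.5-fold or more, those 2-fold from parental cells, and the main exchangers and system A carriers (SLC7A5, SLC7A11, SLC3A2, SLC1A5, SLC38A1 and SLC38A2). Other called genes were named with fold and adjusted p, and of each list up to 3 called rises and 3 falls. SLC7A6, SLC7A2, SLC38A9, SLC1A4 and NEDD4 were given array by array after their values were seen. The genes and lists were chosen with earlier results of these data known. No row carried SLC43A3 alone (its row also carries PRG2). Rows that carry SLC6A8 together with SLC6A10P were also outside the set. They were lower in Cr_small than in control lines (-0.43, limma adjusted p = 0.0247, and -0.44, adjusted p = 0.0330). For all Cr lines against control lines they did not pass (adjusted p = 0.114 and 0.110). SLC7A6OS and SLC38A12 belong to the set by symbol. Alternatives were the methods' t-test, limma with trend and robust moderation, only the groups compared, a filter on dim rows, rows with 1 symbol, quantile normalization, median centring, subtraction of the constant of 16 that RMA16 adds, the mean of a gene's rows, line number as a block, and each line left out.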

Additional observations from a re-analysis of the deposited data

Results flagged for a closer look

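Among the 6 Cr lines, 4 of the 59 transporter genes had a single line set apart from the other 5. The limit was Dixon's critical ratio of 0.625, which chance exceeds in about 1 in 20. The count of 4 is near that rate, and the share over all rows was not counted. SLC36A3, SLC6A17 and SLC7A3 had means under the median of the rows. SLC36A3, at the dim end of the array, was 4.82 in Cr_large line 2, only 0.05 above the next Cr line. SLC6A17, a carrier of synaptic vesicles, was 6.05 in Cr_small line 1. SLC7A3, a cationic amino acid carrier, was 5.31 in Cr_large line 3. SLC1A5 was 9.69 in Cr_large line 3, where the other 5 Cr lines had 10.02 to 10.14.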

How the results depend on the processing

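Over the genes named by rule, 880 comparisons with alternatives kept their side of the threshold 830 times, lost it 42 times and gained it 8 times. Most of these comparisons had not passed in the main fit, so they had no call to lose. Calls other than those of SLC36A4 were less stable. For Cr against control lines SLC1A5 held in 12 of 19 alternatives with an adjusted p, SLC38A2 in 16 and SLC7A6 in 9. No called difference turned its sign; 24 differences that had not passed did (in SLC7A5, SLC7A11, SLC3A2, SLC38A1 and SLC38A4), none larger than 0.24 afterwards. For Cr against control lines, 4 genes passed, against 10 by the methods' t-test unadjusted, 2 after Benjamini-Hochberg and 1 to 4 with a line left out, and at 1.5-fold 1 passed and 1 to 2 with a line left out. For Cr_small 2 passed, against 7 by the t-test unadjusted, 1 adjusted and 1 to 3 with a line left out, and at 1.5-fold 1, against 2 unadjusted and 1 to 2. For Cr_large 3 passed, against 7 unadjusted, 0 adjusted, 1 with only the groups compared, 5 without the dimmest 25% of rows, 5 with 16 subtracted and 1 to 4 with a line left out. At 1.5-fold Cr_large had 1, against 3 unadjusted, 0 adjusted, 2 with trend and robust moderation, 2 over rows with 1 symbol, 2 median centred, 3 without dim rows, 3 with 16 subtracted and 1 to 3 with a line left out. Between Cr_large and Cr_small 0 passed, against 3 by the unadjusted t-test and 0 to 1 with a line left out (SLC7A2 without Cr_large line 2). At 2-fold from parental cells, control lines had 1 gene, against 3 with 16 subtracted and 0 to 2 with a line left out. The causes were not tested. Line numbers were not taken to pair lines. The residuals of the 9 same-numbered pairs correlated from -0.145 to 0.0984, and 12 of 18 best matches fell on the own number. Between control and Cr lines all same-numbered pairs correlated above 0 (0.0102 to 0.0984), and each line matched best with its own number. The negative values were between Cr_small and Cr_large lines. These values do not settle whether the numbers pair lines. With line number as a replicate block, 3 genes passed for Cr, 2 for Cr_small, 2 for Cr_large and 0 between Cr_large and Cr_small lines, and SLC7A6 did not (adjusted p = 0.0734).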
